A study of Mus musculus with 4 samples.

Results

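Hyperplastic mammary glands labelled as having activated protein kinase A (PKA) were compared with wild-type (WT) ones, one epithelial class at a time, so that each class carried the same weight however many cells it held. All cells of both hyperplasia libraries to which the authors gave a class were used, which were 7626 of the 15445 annotated cells of the series. They were 3818 cells of the PKA library and 3808 cells of the WT library. Genes were then sorted into those that differed the same way in all 4 classes and those that differed in 1 class. Each genotype had 1 library, so no difference had a replicate check, no test was made, and every interval given is an exact 95% interval of counting error that compares these libraries rather than the genotypes.

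Both groups carried the MMTV-PyMT transgene, in which the MMTV promoter drives polyoma middle T antigen mainly in the mammary epithelium, and both were taken at 8 to 9 weeks, before the tumor stage that the series also holds. The WT group carried PyMT alone, and the other group is labelled as PKA activated; the labels do not say by which allele or agent PKA was activated, nor how many mice went into a library. Fat pads were digested with enzymes, single cells were sorted by FACS with a gate that is not stated, and RNA was read with the 10x Chromium 3′ kit, which counts unique molecular identifiers (UMIs). The authors assigned the classes Basal, Luminal Progenitor 1, Luminal Progenitor 2 and Mature Luminal from a few markers, among them Krt14 and Krt5 for Basal, Cd14, Kit and Lalba for progenitors, and Pgr, Prlr, Foxa1, Gpx3 and Esr1 for Mature Luminal cells.

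PKA is the kinase that cAMP switches on: cAMP binds its regulatory subunits, the catalytic subunits are released, and they phosphorylate targets such as the transcription factor CREB, while phosphodiesterases break cAMP down again. The mammary epithelium has an outer basal layer of contractile cells and an inner luminal layer, in which progenitor cells give rise to the milk-secreting alveolar cells and mature cells carry the hormone receptors. Milk protein genes such as the caseins and Lalba are switched on by prolactin through STAT5 as alveolar cells differentiate.

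The classes were of very unequal size. Luminal Progenitor 1 held 2885 PKA cells (75.6%) and 2722 WT cells (71.5%), so a ratio over all cells is mostly a ratio of that class. Basal held 228 PKA cells (5.97%) and 200 WT cells (5.25%). Luminal Progenitor 2 held 454 PKA cells (11.9%, exact binomial interval 10.9% to 13.0%) and 770 WT cells (20.2%, interval 19.0% to 21.5%), and Mature Luminal held 251 PKA cells (6.57%, interval 5.81% to 7.41%) and 116 WT cells (3.05%, interval 2.52% to 3.64%). The class totals ran from 384139 UMIs in WT Mature Luminal to 8051311 UMIs in PKA Luminal Progenitor 1, and the median cell held between 1731.5 and 3177.5 UMIs. Each class carried its own markers: the 10 Basal markers summed to 16465 CPM (counts scaled to a common total of the class and library, per 1e6 UMIs) in PKA Basal and 12012 CPM in WT Basal, against at most 210 CPM in any other class. The 8 progenitor markers summed to 11851 CPM or more in both progenitor classes, and the 9 Mature Luminal markers to 11693 and 8057 CPM in PKA and WT Mature Luminal. The progenitor markers also summed to 4602 and 5829 CPM in PKA and WT Basal, and to 1267 and 1398 CPM in PKA and WT Mature Luminal. Some of these markers were used by the authors to assign the classes, so the sums are in part set by that step. Both libraries shared 18 cell barcodes.

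Markers of other cell types were not level between the libraries in the 2 smallest classes. The 6 immune markers summed to 1.95 CPM in PKA Basal, where 5 of 6 were at 0, and to 214 CPM in WT Basal, where 3 of 6 were at 0. The 5 fibroblast markers summed to 801 and 1582 CPM in PKA and WT Basal and to 120 and 609 CPM in PKA and WT Mature Luminal. Dcn alone gave 117 and 599 CPM of the Mature Luminal sums, and no other fibroblast marker had more than 2 UMIs there in either library. The erythroid and Schwann cell markers summed to 68.4 and 432 CPM in Mature Luminal. Of these, Hba-a1 alone gave 64.5 and 427 CPM, while Hbb-bs had 0 UMIs in both libraries. These Mature Luminal sums therefore rest almost wholly on Dcn and on Hba-a1. Cells with 2 or more genes from longer lists of non-epithelial markers made up 47.4% of WT Mature Luminal and 21.1% to 28.5% of every other class and library. The longer immune list, of 19 genes, summed to 592 and 363 CPM in PKA and WT Luminal Progenitor 1. Of these sums, S100a8 alone gave 581 and 350 CPM. The 6 immune markers summed to 3.11 and 5.48 CPM there. A cell counted by the longer lists need not be of another type. The part of these cells and markers in the results was not tested beyond the alternatives that leave such cells out.

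Few genes differed the same way throughout the epithelium. Of 5093 genes with at least 20 UMIs over both libraries in each of the 4 classes, 10 were past 1.5-fold higher in PKA in every class with every interval beyond 0 (0.196%), and 23 were past 1.5-fold lower (0.452%). In 3886 genes no class was past the fold, 18 genes were higher and 41 lower in 3 classes, and 56 genes were past the fold in opposite directions in different classes. Each class alone gave many more. In Basal, 203 of 6109 measured genes were higher (3.32%) and 340 lower (5.57%), and in Luminal Progenitor 1, 601 of 13162 were higher (4.57%) and 722 lower (5.49%). Luminal Progenitor 2 had 368 of 9758 higher (3.77%) and 371 lower (3.8%), and Mature Luminal had 438 of 6877 higher (6.37%) and 548 lower (7.97%). Median log2 ratios were taken over the 5093 genes measured in all 4 classes. They were 0.00 in Basal, -0.01 in Luminal Progenitor 1, 0.01 in Luminal Progenitor 2 and -0.08 in Mature Luminal. TMM factors, another scale, had a log2 ratio of PKA over WT of -0.13 in Mature Luminal, which would raise each ratio of that class by that size, and were within 0.04 of 0 in the others. A class sum does not separate fewer cells with a transcript from less of it per cell.

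Milk protein genes had both the highest and the lowest mean ratio among the agreeing genes that had neither ribosomal protein nor pseudogene names. The highest, Lalba, lost that rank when the 5 cells with most UMIs of each gene were left out, as given below. Csn1s1, which encodes alpha-S1 casein, a main protein of milk micelles, was lower in the PKA library by about the same ratio in every class. Its level was 15.6 CPM in PKA and 162 CPM in WT Basal cells, 55.1 and 768 CPM in Luminal Progenitor 1, 47.6 and 478 CPM in Luminal Progenitor 2, and 6.58 and 62.5 CPM in Mature Luminal cells. The log2 ratios were -3.37, -3.80, -3.33 and -3.25 in that order, with a mean of -3.39 (interval -3.82 to -2.96). Csn1s1 UMIs were found in 115 of 2885 PKA and 623 of 2722 WT cells of Luminal Progenitor 1, and in 5 of 228 and 21 of 200 Basal cells, which are not milk-secreting. In WT Basal, 5 cells held 73.8% of its 65 UMIs. The part of free RNA in these shares and in the ratios was not tested.

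Lalba, which encodes alpha-lactalbumin, the partner of the enzyme that makes lactose, was higher in PKA in every class. Its levels were 3165 CPM in PKA and 1803 CPM in WT Luminal Progenitor 1, 3281 and 1752 CPM in Luminal Progenitor 2, 174 and 91.1 CPM in Mature Luminal, and 598 and 44.8 CPM in Basal. The log2 ratios were 0.81, 0.91 and 0.93 in the 3 luminal classes but 3.74 in Basal, where 1 cell held 162 of the 307 PKA UMIs and 5 cells held 83.7% of them. Without the 5 cells that held most Lalba UMIs in each class and library the Basal ratio was 1.91 and the mean over classes 1.32, against 1.58 (interval 1.37 to 1.80) with them. With each gene treated that way, Ltf (2.59), Spp1 (1.55) and Gt(ROSA)26Sor (1.42) had higher means than Lalba. Lalba was one of the markers by which the authors assigned the progenitor class, so its level between classes is in part set by that step.

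**Figure D1:**
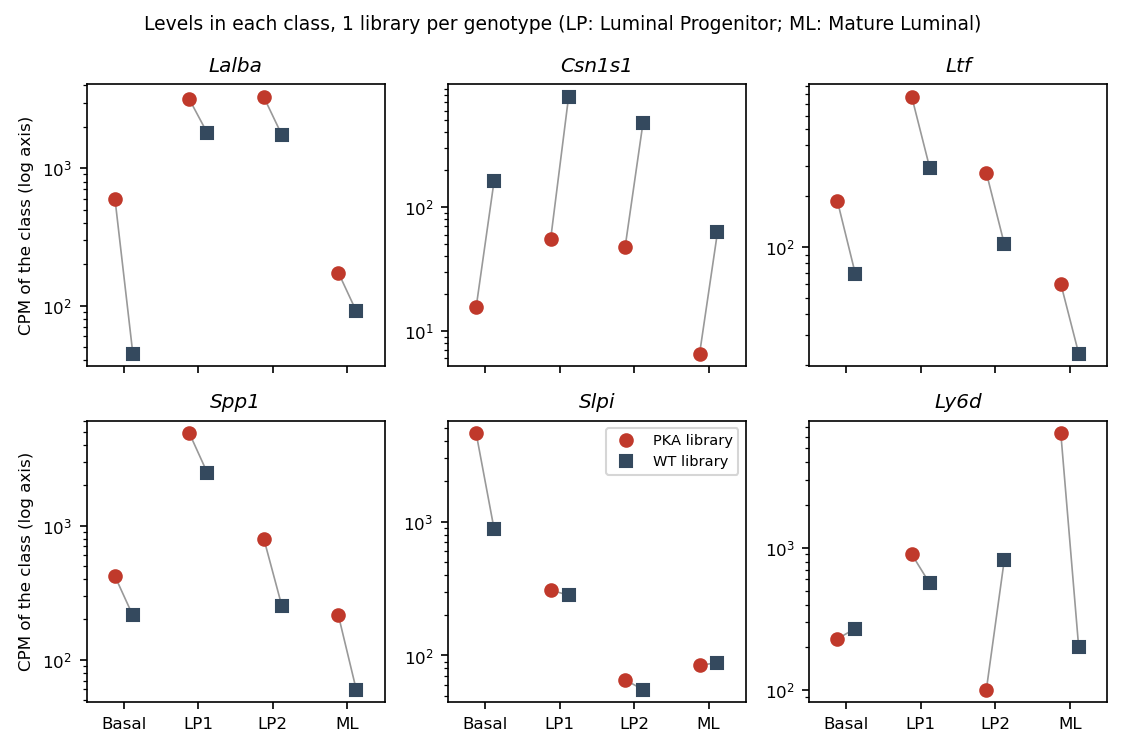
Level of 6 genes in each class, in CPM on a log axis (each panel with its own range), with 1 point per library (circle, PKA; square, WT) and a line joining both libraries of a class. Lalba, Ltf and Spp1 are higher and Csn1s1 lower in PKA in every class, Slpi differs in Basal, and Ly6d is higher in PKA in Mature Luminal and lower in Luminal Progenitor 2.

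The promoters of both milk genes are shown because the genes differed in opposite directions, and those of Uqcrfs1 and Lsm2 because they were the agreeing genes with a complete cAMP response element, the DNA site of CREB, in this window. They are the 250 bases before the RefSeq start in GRCm38.p6, printed 5′ to 3′ on the gene's strand, with capitals for a motif that was found. Searched on both strands were the full element TGACGTCA, its short forms TGACG and CGTCA, which lie within the full element and so are counted with it, and the STAT site TTCNNNGAA. Lalba is at chr15:98482684-98482933 on the minus strand and has no capitals, since none of these letters occurred. Csn1s1 is at chr5:87665958-87666207 on the plus strand, Uqcrfs1 at chr13:30545317-30545566 on the minus strand and Lsm2 at chr17:34981880-34982129 on the plus strand.
Lalba: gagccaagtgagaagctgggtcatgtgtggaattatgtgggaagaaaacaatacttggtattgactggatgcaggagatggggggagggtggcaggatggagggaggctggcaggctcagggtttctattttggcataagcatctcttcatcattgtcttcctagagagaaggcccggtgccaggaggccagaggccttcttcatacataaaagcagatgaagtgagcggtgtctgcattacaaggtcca
Csn1s1: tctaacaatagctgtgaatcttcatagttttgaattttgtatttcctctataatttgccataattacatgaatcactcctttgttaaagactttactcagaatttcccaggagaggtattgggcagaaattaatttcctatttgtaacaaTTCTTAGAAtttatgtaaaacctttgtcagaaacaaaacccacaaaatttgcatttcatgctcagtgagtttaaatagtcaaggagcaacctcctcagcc
Uqcrfs1: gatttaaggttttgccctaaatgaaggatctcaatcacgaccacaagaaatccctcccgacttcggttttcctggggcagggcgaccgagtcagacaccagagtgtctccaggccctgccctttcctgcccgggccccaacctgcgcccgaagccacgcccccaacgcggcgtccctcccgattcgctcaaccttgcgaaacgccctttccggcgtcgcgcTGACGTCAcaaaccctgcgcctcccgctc
Lsm2: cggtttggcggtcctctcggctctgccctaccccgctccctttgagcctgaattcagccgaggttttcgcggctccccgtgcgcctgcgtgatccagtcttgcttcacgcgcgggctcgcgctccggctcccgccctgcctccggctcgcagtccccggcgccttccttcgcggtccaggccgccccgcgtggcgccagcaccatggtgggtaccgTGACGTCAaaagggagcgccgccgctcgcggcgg

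Csn1s1 has a STAT site at position -100 from the start, and Uqcrfs1 and Lsm2 have the full element at positions -29 and -34. RefSeq also has a second Lsm2 start, and the window before it, chr17:34981604-34981853, holds neither the full element nor a short form. The Lsm2 window printed lies inside the annotated gene. The annotated Uqcrfs1 gene, on the minus strand, begins at chr13:30545362, within the window printed, so its full element also lies inside the annotated gene. RefSeq held 25 promoters for 23 of the 33 agreeing genes, and 2 of the 25 had the full element, against 1.55% of all 32851 promoters and 3.37% of the promoters of genes measured in all 4 classes. A short form was present in 4 of the 25, against 17.8% and 30.0%, and the STAT site in 1 of 25, against 7.02% and 5.58%. None of the 8 promoters of genes higher in PKA held a full or short element. A match is only a run of letters, and a missing match says only that these letters are not in this window.

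The other caseins were not uniform with Csn1s1. Csn2, beta-casein, was 44.3 CPM in PKA and 436 CPM in WT Luminal Progenitor 1 (log2 ratio -3.30, interval -3.46 to -3.14) and 5.29 and 347 CPM in Luminal Progenitor 2 (-6.04), where 5 cells held 60% of the 750 WT UMIs. Csn1s2a was lower in the 3 luminal classes, at 160 and 385 CPM in Luminal Progenitor 1 (-1.27), with ratios of -1.62 in Luminal Progenitor 2 and -1.35 in Mature Luminal. Csn3, kappa-casein, which caps the micelle and is the most abundant of these genes, was 17218 CPM in PKA and 14876 CPM in WT Luminal Progenitor 1 (0.21) and 8411 and 9036 CPM in Luminal Progenitor 2 (-0.10). Wap, whey acidic protein, was 42.0 and 43.8 CPM in Luminal Progenitor 1 (-0.06, interval -0.28 to 0.16), a difference within its counting error. Over the 12 milk genes, 1 was higher and 4 lower of 10 measured in each progenitor class (all genes 4.57% and 5.49% in Luminal Progenitor 1, 3.77% and 3.8% in Luminal Progenitor 2). The counts were 1 higher and 2 lower of 5 in Basal (all genes 3.32% and 5.57%) and 1 higher and 3 lower of 5 in Mature Luminal (6.37% and 7.97%). Their median log2 ratio was -0.24 in Basal, -0.01 in Luminal Progenitor 1, -0.18 in Luminal Progenitor 2 and -1.34 in Mature Luminal. The last became 1.28 when cells with 2 or more non-epithelial markers were left out. That value was taken over the genes that still had 20 UMIs then, which may be fewer.

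Besides Lalba, 6 of the 10 higher genes had neither a ribosomal protein nor a pseudogene name. Ltf, lactoferrin, an iron-binding protein of milk and mucosal defence, was 187 CPM in PKA and 69.6 CPM in WT Basal, 769 and 294 CPM in Luminal Progenitor 1, 275 and 105 CPM in Luminal Progenitor 2, and 60.5 and 23.4 CPM in Mature Luminal. Its log2 ratios lay between 1.37 and 1.43 in all 4 classes, with a mean of 1.37 (interval 1.07 to 1.67). Ltf UMIs were found in 979 of 2885 PKA and 514 of 2722 WT cells of Luminal Progenitor 1.

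Spp1, osteopontin, a secreted glycoprotein that binds integrins, was 4872 CPM in PKA and 2479 CPM in WT Luminal Progenitor 1, where 1717 of 2885 and 1014 of 2722 cells had a UMI. It was 419 and 214 CPM in Basal, 794 and 253 CPM in Luminal Progenitor 2, and 214 and 59.9 CPM in Mature Luminal. The ratios were 0.98 in Luminal Progenitor 1, 0.97 in Basal, 1.65 in Luminal Progenitor 2 and 1.84 in Mature Luminal, so the ratios were larger in the latter 2 classes. Qsox1, a sulfhydryl oxidase that forms disulfide bonds in secreted proteins, was highest in Mature Luminal, where the PKA library had 919 CPM and the WT library 318 CPM (1.53), and had ratios of 0.90 in Basal, 1.19 in Luminal Progenitor 1 and 1.01 in Luminal Progenitor 2.

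The secretoglobins Scgb2b27 and Scgb1b27, small secreted proteins encoded by neighbouring genes on chromosome 7, were mainly Luminal Progenitor 2 transcripts. Scgb2b27 was 10107 CPM in PKA and 6230 CPM in WT Luminal Progenitor 2 (0.70) and 614 and 191 CPM in Luminal Progenitor 1 (1.68). Scgb1b27 was 9717 and 5440 CPM in Luminal Progenitor 2 (0.84) and 203 and 76.5 CPM in Luminal Progenitor 1 (1.41). The mean over classes was 1.07 for Scgb2b27 and 1.02 for Scgb1b27, whereas the ratio over all cells was 0.32 and 0.26; the WT library held more cells of Luminal Progenitor 2, where most of their UMIs were. In Basal and Mature Luminal both were between 49.5 and 212 CPM, a small fraction of the Luminal Progenitor 2 level.

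Gt(ROSA)26Sor, the noncoding transcript of the Rosa26 locus into which transgenes are often placed, was 95.5 CPM in PKA and 39.8 CPM in WT Basal and 91.0 and 39.2 CPM in Luminal Progenitor 1. Its ratios were 1.26 in Basal, 1.21 in Luminal Progenitor 1, 1.48 in Luminal Progenitor 2 and 0.96 in Mature Luminal, at a like level in every class. The labels name no allele at this locus. The labels do not say whether the authors' counting used strand, so reads from genes on the opposite strand at this locus cannot be told apart from its own.

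**Figure D2:**
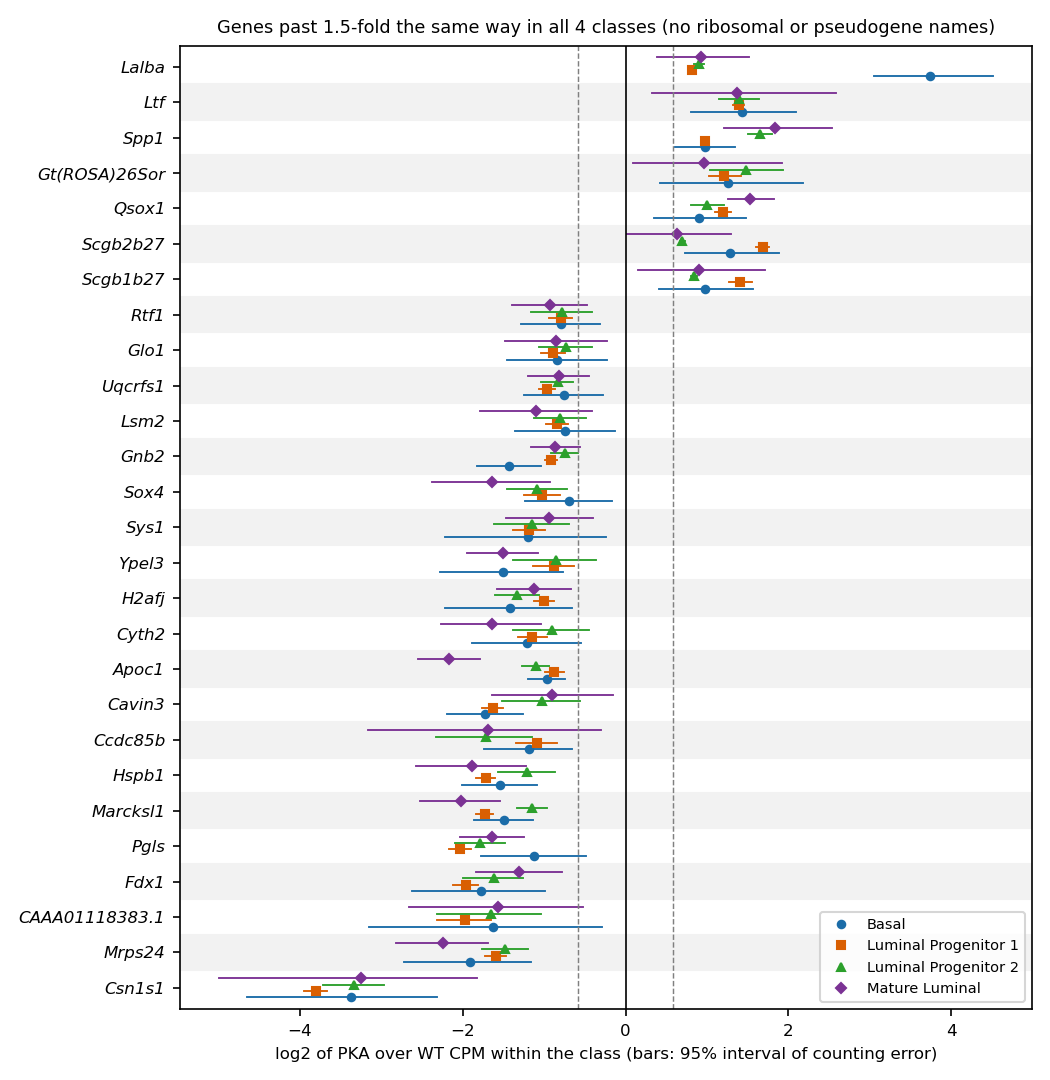
Log2 ratio of PKA over WT CPM in each class (blue circle, Basal; orange square, Luminal Progenitor 1; green triangle, Luminal Progenitor 2; purple diamond, Mature Luminal) for the 27 agreeing genes without ribosomal protein or pseudogene names, with 95% intervals of counting error as bars and 1.5-fold as dashed lines. Csn1s1 stands apart at the bottom with ratios of -3.80 to -3.25, and the Basal point of Lalba at 3.74 stands apart from its 3 luminal points.

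The 20 lower genes with other names had mixed roles, and apart from Csn1s1 their means ran from -1.80 to -0.82. Mrps24, a subunit of the mitochondrial ribosome, was 83.8 CPM in PKA and 253 CPM in WT Luminal Progenitor 1 and 51.3 and 242 CPM in Mature Luminal, with a mean ratio of -1.80. Fdx1, ferredoxin, which passes electrons to mitochondrial cytochromes P450, was 52.2 and 203 CPM in Luminal Progenitor 1, with a mean of -1.66. Pgls, an enzyme of the pentose phosphate pathway, was 67.2 and 274 CPM in that class, with a mean of -1.64. Uqcrfs1, the iron-sulfur subunit of respiratory complex III, had a mean of -0.84, and Glo1, which detoxifies methylglyoxal, -0.83; these 2 genes, with Gnb2, Lsm2 and Rtf1, lay outside the 15 lowest that were to be named and were named after their values were seen.

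Hspb1, the small heat shock protein Hsp27, was 113 CPM in PKA and 328 CPM in WT Basal, 100 and 330 CPM in Luminal Progenitor 1, 67.2 and 156 CPM in Luminal Progenitor 2, and 39.5 and 146 CPM in Mature Luminal, with a mean of -1.58 (interval -1.79 to -1.37). Every class of the PKA library lay below every class of the WT library for this gene. Marcksl1, a protein that regulates actin, was 122 and 404 CPM in Luminal Progenitor 1, with ratios of -1.49 in Basal, -1.73 in Luminal Progenitor 1, -1.15 in Luminal Progenitor 2 and -2.02 in Mature Luminal. Apoc1, an apolipoprotein, was highest in Basal, at 517 and 1010 CPM, and had its lowest ratio, -2.17, in Mature Luminal, at 112 and 502 CPM.

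Sox4, a transcription factor that the authors used as a marker of EMT-like cells elsewhere in the series, was 107 CPM in PKA and 174 CPM in WT Basal, 31.2 and 63.3 CPM in Luminal Progenitor 1, 60.4 and 128 CPM in Luminal Progenitor 2, and 36.8 and 115 CPM in Mature Luminal. Its mean ratio was -1.10 (interval -1.34 to -0.87). Cavin3, a coat protein of caveolae, had ratios of -1.72 in Basal and -1.63 in Luminal Progenitor 1 and of -1.03 and -0.90 in the other 2 classes. Mean ratios were -1.68 for CAAA01118383.1, which lies on an unplaced scaffold, -1.41 for Ccdc85b, -1.22 for Cyth2, an exchange factor for Arf GTPases, -1.21 for the histone gene H2afj, -1.18 for Ypel3 and -1.11 for the Golgi protein gene Sys1. Gnb2, a G protein beta subunit, had a mean of -0.99, Lsm2, which binds the ends of U6 RNA, -0.87, and Rtf1, a transcription elongation factor, -0.82.

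The agreement was checked in other ways. Without the 5 cells that held most UMIs of a gene in each class and library, 8 of the 10 higher and 16 of the 23 lower genes still met the rule, 10 and 21 were past the fold in all classes, and every mean kept its sign. Csn1s1 and Ltf were among those that no longer met it: without those cells Csn1s1 had 0 PKA and 17 WT UMIs in Basal and 0 and 2 in Mature Luminal, and Ltf 10 and 1 in Basal and 27 and 0 in Mature Luminal. With 99.9% intervals, 6 higher genes (Lalba, Spp1, Qsox1, Rps3a1 and 2 predicted pseudogenes) and 14 lower genes remained, Csn1s1, Hspb1, Marcksl1 and Apoc1 among them. These last checks were chosen after the data were seen.

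Ribosomal protein or pseudogene names were carried by 6 agreeing genes, 3 of the 10 higher and 3 of the 23 lower, and some of these have near-identical copies with which they can share reads. Rps3a3, a processed pseudogene whose last 300 bases are 98.3% identical to Rps3a1, was 2.35 CPM in PKA and 1508 CPM in WT over all cells, while Rps3a1 was 786 and 405 CPM. The gene with its 7 copies summed to 806 CPM in PKA and 1929 CPM in WT, a log2 ratio of -1.26, so the ratio of either one alone is uncertain. Gm9625 with its copies, Rplp0 among them, had a ratio of -0.50, and Gm11942 with its copies 0.04, where each alone was far higher in PKA. Of the 32 agreeing genes in the transcript file, 14 had a copy of at least 95% identity over at least 100 of the last 300 bases and 18 had none; Lalba, Csn1s1 and Ltf had none.

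The same genes were looked up in barcodes that the class ratios had not used, a step added after the data were seen. In the hyperplasia barcodes to which the authors gave no class, 1040 in the PKA and 1371 in the WT library, all 10 higher and all 23 lower genes were past 1.5-fold the same way, against 2.68% and 5.53% of all genes measured in the 4 classes. These barcodes come from the same 2 libraries and are no replicate. The log2 ratio there was -2.97 for Csn1s1 and 0.61 for Lalba, and 2.61 and 4.55 for Scgb2b27 and Scgb1b27. In the annotated cells of the tumor libraries, 2638 PKA and 5181 WT cells, 2 of 10 and 5 of 23 were past the fold the same way (all genes 5.95% and 9.13%), and 1 and 3 the other way. In sign alone, 5 of the 10 higher and 14 of the 23 lower genes kept their direction in the tumor. Lalba (2.38) and Csn1s1 (-2.07) kept their directions there, Ltf and Spp1 had ratios of 0.24 and 0.09, and Scgb2b27 (-2.20) and Apoc1 (1.22) had the opposite sign, as did H2afj (0.64), Hspb1 (0.23), Marcksl1 (0.11) and Sox4 (0.08). The split between Rps3a3 and its copies was absent in the tumor libraries, where Rps3a3 was 7.64 CPM in PKA and 6.61 CPM in WT.

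**Figure D3:**
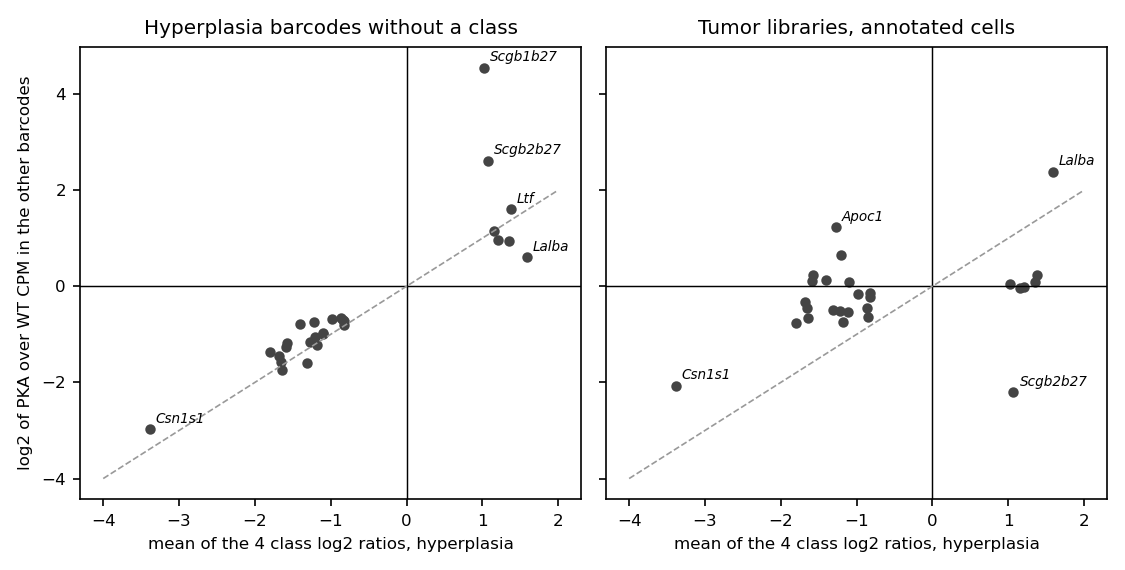
Mean class log2 ratio in hyperplasia (x axis) against the log2 ratio of the same gene in hyperplasia barcodes without a class (left, y axis) and in annotated tumor cells (right), with 1 point for each of the 27 agreeing genes without ribosomal protein or pseudogene names and the line of equal values dashed. All points on the left share the sign of their mean, while on the right several points, Apoc1 and Scgb2b27 farthest, lie on the opposite side of 0.

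Genes that differed in 1 class alone were defined as past 2-fold there and within 1.5-fold in the other 3 classes, with an interval of the difference between that class and the other 3 that did not hold 0. These intervals were not adjusted for the number of genes. Mature Luminal had by far the most, 73 higher (1.43%) and 75 lower (1.47%) of the 5093 genes. Basal had 23 higher (0.452%) and 31 lower (0.609%), Luminal Progenitor 1 had 2 higher (0.0393%) and 2 lower (0.0393%), and Luminal Progenitor 2 had 0 higher (0%) and 5 lower (0.0982%). The 2 classes with most such genes were those with the fewest UMIs, and the median one-class gene had 65 UMIs in Mature Luminal and 43 in Basal. With 99.9% intervals 54 of 148 Mature Luminal and 6 of 54 Basal genes remained, with all 4 of Luminal Progenitor 1 and 1 of 5 in Luminal Progenitor 2. When cells with 2 or more non-epithelial markers were left out, 0 genes of Luminal Progenitor 1 and 1 of Luminal Progenitor 2 met the rule.

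**Figure D4:**
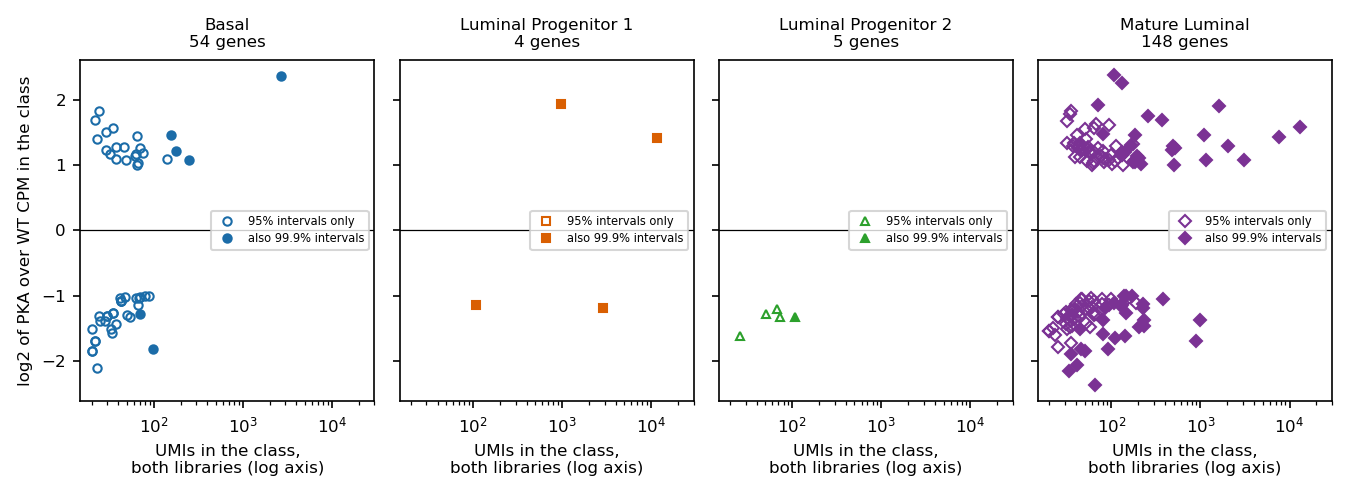
Genes past 2-fold in 1 class and within 1.5-fold in the others, by their UMIs in that class over both libraries (x axis, log scale) and their log2 ratio there (y axis), with filled points for genes that also met the rule with 99.9% intervals. Most Basal and Mature Luminal points lie at few UMIs and are open, and Slpi is the Basal point at the upper right.

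In Basal cells the clearest difference was Slpi, a secreted inhibitor of neutrophil proteases. It was 4551 CPM in PKA and 883 CPM in WT Basal (log2 ratio 2.37) but 308 and 282 CPM in Luminal Progenitor 1, 65.7 and 55.6 CPM in Luminal Progenitor 2, and 84.2 and 88.5 CPM in Mature Luminal. The difference from the other classes was 2.18 (interval 2.00 to 2.36), and Slpi UMIs were found in 103 of 228 PKA and 67 of 200 WT Basal cells, with 24.5% of the PKA UMIs in 5 cells. Krt19, a keratin of luminal cells, was 236 and 84.6 CPM in Basal (1.48), far below its 4938 and 3548 CPM in Mature Luminal. Arl4c, a small GTPase, was 257 and 109 CPM (1.23), and the noncoding RNA Zfas1 353 and 167 CPM (1.08). Lower with 99.9% intervals were Arrdc4, an arrestin-domain gene, at 50.7 and 182 CPM (-1.84), and Btg1, an antiproliferative gene, at 46.8 and 114 CPM (-1.29). Among those at few UMIs, Samhd1, a dNTP hydrolase, had a ratio of 1.65, Fam168a 1.59 and Oxa1l 1.49. Only 22 of the 54 Basal genes met the rule without the 5 cells that held most of their UMIs, and immune and fibroblast markers also differed in this class as given above.

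In Luminal Progenitor 1, the deepest class, the higher genes were Cxcl1 and Tppp3. Cxcl1, a neutrophil-attracting chemokine, was 1059 CPM in PKA and 397 CPM in WT (1.42), with a UMI in 968 of 2885 and 480 of 2722 cells, and 1230 and 1092 CPM in Basal (0.17). Tppp3, a tubulin-binding protein gene, was 95.9 and 25.1 CPM (1.93) and 179 and 191 CPM in Basal (-0.09). The lower genes were Prss22, a serine protease, at 111 and 254 CPM (-1.20), and Praf2 at 4.22 and 9.42 CPM (-1.16). In Luminal Progenitor 2 the named genes were all low: Kctd11 was 15.9 and 40.3 CPM, Rdm1 10.6 and 27.3 CPM, Arl6ip6 7.56 and 19.0 CPM, and Lats2, a kinase of the Hippo pathway, 10.6 and 25 CPM. Without the 5 cells with most UMIs of a gene none of the 4 Luminal Progenitor 1 genes met the rule, although their own ratios there were 1.49, 2.03, -1.24 and -1.32.

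Mature Luminal cells differed most. Crip1, a small LIM-domain protein gene, was 1888 CPM in PKA and 505 CPM in WT (1.90, difference from the other classes 1.65, interval 1.43 to 1.88) and 571 and 771 CPM in Basal (-0.43), with a UMI in 211 of 251 PKA and 74 of 116 WT cells. Ramp1, a partner of the receptor for the calcitonin gene-related peptide, was 128 and 23.4 CPM (2.45) in Mature Luminal and 334 and 244 CPM in Luminal Progenitor 1 (0.45). Csf3, the granulocyte growth factor, was 155 and 31.2 CPM (2.31), with 61% of the PKA UMIs in 5 cells. The immediate early genes Fosb, a subunit of the AP-1 transcription factor, at 82.9 and 20.8 CPM (1.99), and Dusp1, a phosphatase of MAP kinases, at 39.5 and 10.4 CPM (1.92), were higher too, as was Vkorc1, the enzyme that recycles vitamin K (1.97). Dusp1 and Vkorc1 did not meet the rule with 99.9% intervals, nor did Dusp1 without the 5 cells with most of its UMIs. Of 15 measured AP-1 and immediate early genes, 4 were higher and 1 lower in this class (median 0.04, all genes 6.37% and 7.97%).

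Lower in Mature Luminal cells were Tubb2b, a beta-tubulin, with 23.7 CPM against 125 CPM (-2.40), and Arg1, arginase, at 17.1 and 72.9 CPM (-2.09). Fblim1, a protein of cell-matrix contacts, was 21 and 75.5 CPM (-1.84), Nop16 had a ratio of -2.19, Rabgap1l -1.92 and Arid1b, a subunit of a chromatin remodeller, -1.86. Of the 148 genes, 52 had at least 100 UMIs in the class, and 77 met the rule without the 5 cells with most of their UMIs. Genes with under 20 UMIs in some other class could not be placed: past 2-fold were 129 higher and 131 lower in Mature Luminal, 47 and 81 in Basal, 222 and 289 in Luminal Progenitor 1, and 119 and 126 in Luminal Progenitor 2. The genes measured in these classes numbered 6877, 6109, 13162 and 9758 in that order, and 5093 of them were measured in all 4 classes. The pools from which these counts came thus differed in size, and the counts cannot be ranked between classes.

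Genes of the mature luminal list with few UMIs in the other classes included Calca and Tnfsf11. Calca, which encodes calcitonin and its related neuropeptide, was 28.9 CPM in PKA and 7047 CPM in WT Mature Luminal (-7.93), with a UMI in 13 of 251 and 108 of 116 cells, and at most 7.88 CPM in any other class. Tnfsf11, RANK ligand, the paracrine signal of progesterone-responsive cells, was 1.32 and 138 CPM (-6.71). Pgr, the progesterone receptor, was 129 and 133 CPM (-0.04, interval -0.55 to 0.48) and Esr1, the estrogen receptor, 118 and 107 CPM (0.15, interval -0.40 to 0.72), both within counting error. Ly6a, the surface antigen Sca-1, was 3805 and 1057 CPM (1.85), and Prom1, the surface protein CD133, 253 and 62.5 CPM (2.02). Of the 15 measured genes of that list, 4 were higher and 4 lower in Mature Luminal (all genes 6.37% and 7.97%), with a median of 0.14. The libraries held 251 and 116 such cells, and a different make-up of the class cannot be told apart from a difference within its cells.

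Some genes went opposite ways in different classes. Ly6d, a surface antigen of the Ly6 family, was 6334 CPM in PKA and 200 CPM in WT Mature Luminal (4.98), with a UMI in 240 of 251 and 25 of 116 cells, but 101 and 815 CPM in Luminal Progenitor 2 (-3.01), with a UMI in 57 of 454 and 141 of 770 cells. In Luminal Progenitor 1 it was 897 and 562 CPM (0.68), and in Basal 230 and 271 CPM (-0.24, interval -0.63 to 0.15). Rgs2, a regulator of G protein signalling and a CREB target, was 65.8 and 648 CPM in Mature Luminal (-3.30) and 111 and 54.7 CPM in Basal (1.02). Mdk, the growth factor midkine, had a UMI in 20 of 251 PKA and 34 of 116 WT Mature Luminal cells (-3.20) and was 125 and 54.7 CPM in Basal (1.19).

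Hp, haptoglobin, was lower in PKA in the first 3 classes, at 9.75 and 57.2 CPM in Basal (-2.55), 84.0 and 203 CPM in Luminal Progenitor 1 (-1.27) and 7.56 and 45.9 CPM in Luminal Progenitor 2 (-2.60), and higher in Mature Luminal, at 325 and 174 CPM (0.90). Tspan8, a tetraspanin, had ratios of 2.31 in Basal, 0.62 in Luminal Progenitor 1, -1.20 in Luminal Progenitor 2 and -1.43 in Mature Luminal. Lhfp was 30.3 and 187 CPM in Mature Luminal (-2.63) and 23.4 and 11.6 CPM in Luminal Progenitor 2 (1.02). Lgals3, galectin-3, was 2003 and 435 CPM in Mature Luminal (2.20) and 187 and 284 CPM in Basal (-0.60), and Stc2, a secreted glycoprotein, 527 and 88.5 CPM in Mature Luminal (2.58) and 11.8 and 20.6 CPM in Luminal Progenitor 1 (-0.81). The metal-binding metallothioneins Mt1 and Mt2 went together, with ratios of -0.96 and -1.19 in Basal, -0.62 and -0.86 in Luminal Progenitor 1, -0.51 and -0.68 in Luminal Progenitor 2, and 0.80 and 0.71 in Mature Luminal.

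Weighting the classes equally changed the sign of 1170 genes against the ratio over all cells, but for only 2 of them were both values at least 0.25 in size. The widest gap was that of AW112010, with 1.5 over all cells and -0.26 as a mean over classes. It was 6222 CPM in PKA and 2166 CPM in WT Mature Luminal (1.52) and lower in the other classes, at 50.4 and 116 CPM in Luminal Progenitor 1 (-1.20), with ratios of -0.81 in Luminal Progenitor 2 and -0.58 (interval -1.45 to 0.27) in Basal. The PKA library held the larger share of Mature Luminal cells. Alcam, an adhesion molecule, was 349 and 297 CPM in Mature Luminal (0.23) and 0.58 over all cells against -0.11 as a mean, and Abcg1, a cholesterol exporter, 0.91 over all cells against -0.02. The values over all cells and as a mean were 0.73 and -0.00 for Tnfaip2, 0.16 and -0.58 for Gpsm3, and 0.15 and -0.57 for Mapre3.

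A list of 27 genes of the PKA pathway itself was also followed. In Luminal Progenitor 1, where 26 were measured, 2 were higher and 1 lower (all genes 4.57% and 5.49%), with a median log2 ratio of 0.10; in Luminal Progenitor 2, 1 of 20 was higher and none was lower (-0.05; all genes 3.77% and 3.8%), in Basal none was higher and 2 of 15 were lower (-0.34; all genes 3.32% and 5.57%), and in Mature Luminal 1 was higher and 1 lower of 15 (-0.24; all genes 6.37% and 7.97%). Prkaca, the main catalytic subunit, was 31.2 CPM in PKA and 29.8 CPM in WT Basal (0.06, interval -1.11 to 1.28), 33.2 and 26.0 CPM in Luminal Progenitor 1 (0.35, interval 0.08 to 0.62), 38.5 and 40.8 CPM in Luminal Progenitor 2 (-0.08, interval -0.61 to 0.43) and 51.3 and 26.0 CPM in Mature Luminal (0.98, interval -0.05 to 2.15). Its differences were within 1.5-fold or within counting error in each class. Prkar1a, a regulatory subunit, had ratios of -0.47 in Basal, -0.15 in Luminal Progenitor 1, -0.04 in Luminal Progenitor 2 and -0.13 in Mature Luminal. Pkib, a PKA inhibitor, was 13.7 and 3.95 CPM in Luminal Progenitor 1 (1.79), and the phosphodiesterase gene Pde8a 3.23 and 1.15 CPM (1.49), while Atf1, a CREB family member, was 37.0 and 92.0 CPM in Basal (-1.31). Transcript levels do not measure the activity of the kinase.

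Of 23 CREB target genes, 1 was higher and none lower of 20 measured in Basal (median 0.00; all genes 3.32% and 5.57%), and 1 higher and 2 lower of 19 in Luminal Progenitor 1 (0.15; 4.57% and 5.49%). In Luminal Progenitor 2, 1 was higher and none lower of 18 (-0.13; all genes 3.77% and 3.8%), and in Mature Luminal 2 were higher and 1 lower of 13 (-0.24; 6.37% and 7.97%). Nr4a1, an orphan nuclear receptor, was 63.1 CPM in PKA and 35.3 CPM in WT Luminal Progenitor 1 (0.84), and Nr4a3, its relative, had a ratio of -0.71 there.

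**Figure D5:**
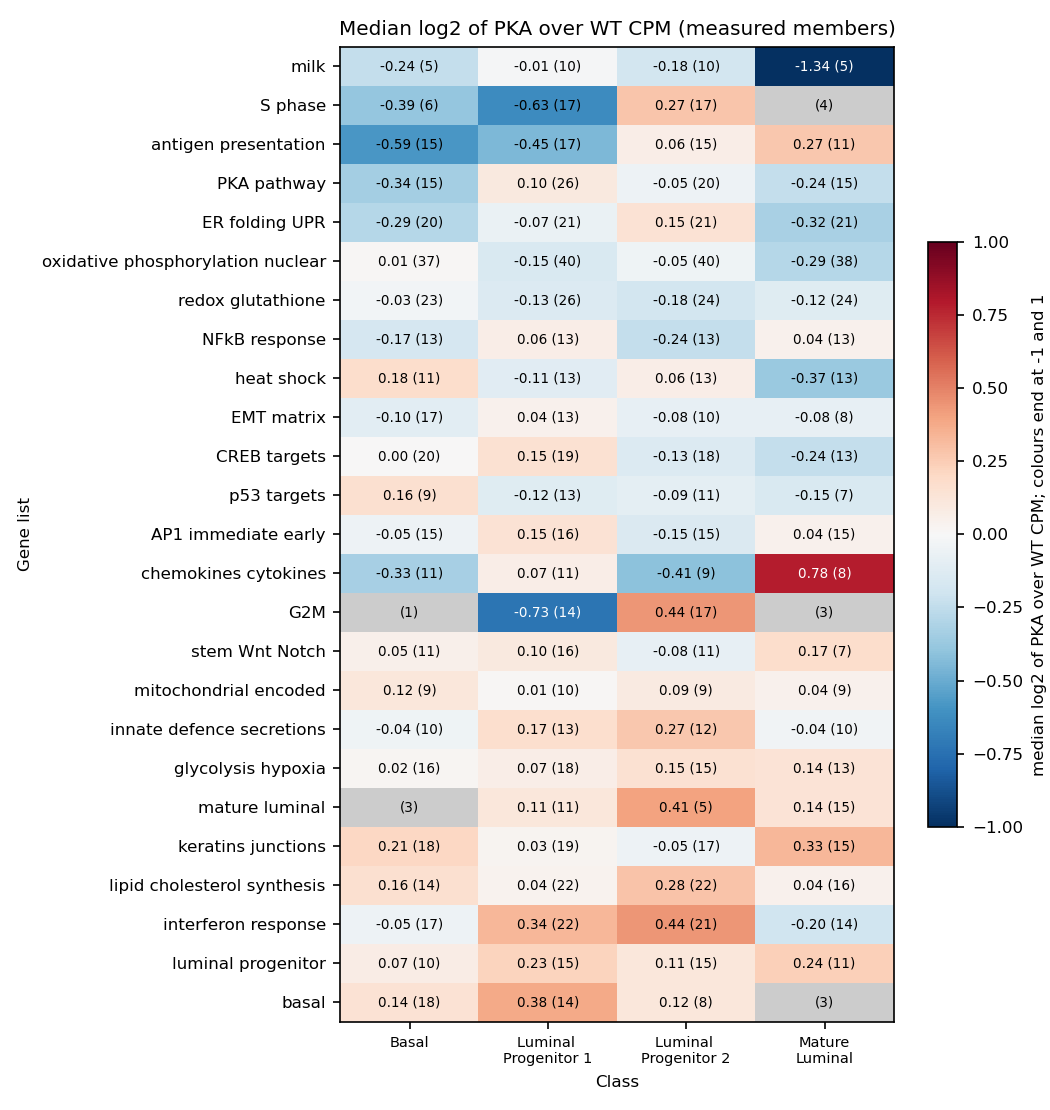
Median log2 ratio of the measured genes of each list (rows) in each class (columns), with the number of measured genes in brackets, red for higher and blue for lower in PKA, colours ending at -1 and 1, and grey where under 5 genes were measured. The interferon and G2/M rows are red in Luminal Progenitor 2, and the antigen presentation row is blue in Basal and Luminal Progenitor 1.

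Several interferon response genes were higher and several antigen presentation genes lower in Luminal Progenitor 1. Of 22 interferon genes, 6 were higher and none lower there (all measured genes 4.57% and 5.49%), and 20 of 22 had a ratio above 0 (median 0.34), and 8 were higher and none lower in Luminal Progenitor 2 (all genes 3.77% and 3.8%), where all 21 measured were above 0 (0.44). Basal had 1 higher and 3 lower of 17 (-0.05, all genes 3.32% and 5.57%). Mature Luminal had 1 higher and 1 lower of 14 (-0.20, all genes 6.37% and 7.97%). Isg15, a ubiquitin-like protein gene, was 678 CPM in PKA and 380 CPM in WT Luminal Progenitor 1 (0.84), with a ratio of 0.56 in Luminal Progenitor 2, and Irf7, a master regulator of the response, was 757 and 474 CPM in Luminal Progenitor 1 (0.68). Usp18, which removes Isg15 from proteins, was 71.4 and 40.2 CPM (0.83) and 56.7 and 28.3 CPM in the progenitor classes. Ifitm3, an antiviral membrane protein, was higher in Luminal Progenitor 2, at 1279 and 734 CPM (0.80), and lower in Mature Luminal, at 1452 and 2353 CPM (-0.70).

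B2m, the shared light chain of class I molecules, was lower in PKA in every class, with ratios of -0.83 in Basal, -0.58 in Luminal Progenitor 1, -0.36 in Luminal Progenitor 2 and -1.81 in Mature Luminal, where it was 2119 CPM in PKA and 7427 CPM in WT. It missed the agreeing genes through both progenitor classes. The class I heavy chains H2-K1 and H2-D1 had ratios of -0.52 and -0.57 in Basal, -0.50 and -0.45 in Luminal Progenitor 1, -0.10 and -0.15 in Luminal Progenitor 2, and 0.03 and 0.07 in Mature Luminal. Over the 17 antigen presentation genes none was higher and 6 of 15 were lower in Basal (median -0.59, all genes 3.32% and 5.57%). In Luminal Progenitor 1 none was higher and 3 of 17 were lower (-0.45, all genes 4.57% and 5.49%). In Luminal Progenitor 2, 2 of 15 were higher and none lower (0.06, all genes 3.77% and 3.8%). Mature Luminal had 2 higher and 1 lower of 11 (0.27, all genes 6.37% and 7.97%). The class II genes differed in Basal together with immune markers, whose part was not tested: Cd74 was 78.0 and 500 CPM there and H2-Aa 7.80 and 249 CPM, in the class where immune markers summed to 1.95 and 214 CPM.

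Cell cycle genes had medians of opposite sign in the progenitor classes. In Luminal Progenitor 1, none of 17 measured S phase genes was higher and 7 were lower (median -0.63). None of 14 G2/M genes was higher and 6 were lower there (-0.73). All genes gave 4.57% higher and 5.49% lower, and the genes of both lists were at low levels. When every class was thinned to 384139 UMIs the medians were 0 and 0.014, over the fewer genes that still had 20 UMIs. Thinning therefore cannot show whether the difference of the full lists in Luminal Progenitor 1 holds at equal depth. Mcm5, a subunit of the replicative helicase, was 2.86 CPM in PKA and 9.30 CPM in WT (-1.70) there, and Top2a, topoisomerase II, 3.85 and 8.66 CPM (-1.17). In Luminal Progenitor 2, 6 of 17 G2/M genes were higher and none lower (0.44; all genes 3.77% and 3.8%), and 1 was higher and 1 lower of 17 S phase genes (0.27). Birc5, survivin, was 102 and 49.1 CPM there (1.05), Mki67, the proliferation marker Ki-67, 43.1 and 23.2 CPM (0.89), and Top2a 66.5 and 49.1 CPM (0.44). With 1 library per genotype, a difference between the genotypes cannot be told apart from one between the mice.

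Secreted defence proteins were higher in some classes and lower in others. Saa1 and Saa2, acute phase serum amyloid proteins, were 3691 CPM in PKA and 895 CPM in WT (2.04) and 2430 and 379 CPM (2.68) in Luminal Progenitor 2, and had ratios of 0.87 and 0.85 in Luminal Progenitor 1. C3, the central complement component, went the other way, at 25 and 161 CPM in Luminal Progenitor 1 (-2.69), 11.3 and 55.6 CPM in Luminal Progenitor 2 (-2.29) and 37.0 and 84.6 CPM in Basal (-1.19). Reg3g, an antibacterial lectin, was 118 and 26.0 CPM in Mature Luminal (2.19), and Wfdc2, a WAP-domain protein, 5167 and 2372 CPM (1.12). Of the 15 genes of the list, 4 were higher and 1 lower of 10 measured in Basal (all genes 3.32% and 5.57%), and 4 and 2 of 13 in Luminal Progenitor 1 (4.57% and 5.49%). The counts were 4 and 1 of 12 in Luminal Progenitor 2 (3.77% and 3.8%) and 4 and 3 of 10 in Mature Luminal (6.37% and 7.97%).

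Cytokine genes differed in separate classes. Il6, interleukin 6, was 197 CPM in PKA and 77.1 CPM in WT Basal (1.35), and Ccl2, a monocyte-attracting chemokine, 501 and 828 CPM in Basal (-0.73) but 20.6 and 8.15 CPM in Luminal Progenitor 1 (1.34). Of the 20 genes of the list, 2 were higher and 4 lower of 11 in Basal (median -0.33; all genes 3.32% and 5.57%), and 2 and 2 of 11 in Luminal Progenitor 1 (0.07; 4.57% and 5.49%). None was higher and 1 lower of 9 in Luminal Progenitor 2 (-0.41; 3.77% and 3.8%), and 3 were higher and none lower of 8 in Mature Luminal (0.78; 6.37% and 7.97%).

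The genes nearest the limits show how the agreeing set was bounded. With 0.5 UMIs added, the weakest class ratio just inside was 0.62 for Scgb2b27 among the higher genes, and -0.60 for Rpl29, a ribosomal protein gene, and -0.70 for Sox4 among the lower ones. Just outside were Gas5, a noncoding RNA, at 0.58, and Crlf2, a cytokine receptor, at -0.58. Some genes were past 1.5-fold in all 4 classes but missed the set because an interval held 0 in at least 1 class. Among the higher genes these were Car6, carbonic anhydrase 6, and Tns4, a focal adhesion protein, with weakest ratios of 0.87 and 0.86. More of the lower genes were in that place, with Hyi, Imp3, Tbcc and Tomm40 as examples. The number of lower agreeing genes therefore depends on the counting error in each class.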

How the data were processed

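Gene expression was read in single cells with the 10x Chromium 3′ v2 kit, per the labels. The deposited count files hold the authors' UMI counts per gene and cell barcode, with no normalization; the authors' cell tables give each annotated barcode a class, assigned with Monocle2 per the series design, and a mitochondrial fraction that the authors deposited per cell. Per the submitters' processing notes the tools were STAR 2.5.3a, Cell Ranger, Subread 1.6.0 and featureCounts, and the build GRCm38 (mm10). The filter that left 1040 PKA and 1371 WT barcodes without a class, the strand setting and the annotation release are not given in the sources used here. PKA and WT files listed 23911 and 23963 genes, and a gene listed in 1 of them was taken as 0 in the other.

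Groups came from the sample titles. UMIs were summed over the cells of a class and library and divided by that sum's total to give CPM, since cells are not replicates. A log2 ratio of PKA over WT has an exact conditional binomial 95% interval. A gene was measured in a class with at least 20 UMIs over both libraries, and 0.5 UMIs were added for ranking and for medians. The fold was 1.5 for agreement and 2 for genes of 1 class. The value with equal weights is the unweighted mean of the 4 class ratios. Its interval is a normal approximation from the summed counting variances and is not exact. Intervals cover counting error only. No doublets were removed.

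Named were the 15 highest and 15 lowest agreeing genes by mean ratio, the 6 highest and 6 lowest genes of each class, the 6 widest gaps between pooled and equal weights, and members of the gene lists. Given as counts only were mitochondrial, ribosomal protein, haemoglobin, predicted and pseudogene names, non-epithelial markers, Xist, Tsix and the Y-linked genes Uty, Kdm5d, Eif2s3y and Ddx3y. Exceptions were Rps3a3, Gm9625 and Gm11942 with their copies as a check of counting, Rpl29 near a limit, and Dcn, Hba-a1, Hbb-bs and S100a8 as parts of marker sums. One gene that the rule names is not reported here. Comparison, classes and lists were chosen with earlier results of these data known. Alternatives were TMM factors, totals without mitochondrial, ribosomal and milk genes, the mean of cell CPM, leaving out cells under 500 genes or over 10% mitochondrial UMIs, cells with 2 or more non-epithelial markers left out, other minimums and folds, thinning, joined progenitor classes, and each class left out. Added after the data were seen were cells with 5 or more such markers left out, 99.9% intervals, leaving out the 5 cells with most UMIs of a gene, and the look at other barcodes. The steps were tested on simulated counts. Promoters came from RefSeq. Tools were pandas 2.3.3, SciPy 1.17.1, NumPy 2.4.6 and matplotlib 3.10.9 in Python 3.11.15, blastn 2.17.0, and edgeR 4.0.16 with R 4.3.3 for TMM factors.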

Additional observations from a re-analysis of the deposited data

Results flagged for a closer look

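The genes below were past 1.5-fold in opposite directions in different classes of the same 2 libraries; with 1 library per genotype the difference between classes was not tested. The range of the class log2 ratios was 7.98 for Ly6d, from Luminal Progenitor 2 to Mature Luminal. It was 4.66 for Rgs2 and 4.35 for Mdk, both lowest in Mature Luminal. The range was 3.62 for Lhfp, 3.54 for Tspan8 and 3.43 for Hp, of which Hp alone was higher in PKA in Mature Luminal.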

How the results depend on the processing

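Of 448 values of gene means and 476 of one-class ratios under the alternatives, 423 and 458 moved by less than their counting error. Among these values, no one-class ratio and no mean of an agreeing gene changed sign. The means of the 6 genes with the widest gaps between pooled and equal weights were not checked for sign. Of 105 counts, 67 stayed within 1.5 times. The main counts were 10 agreeing genes higher and 23 lower, and 54, 4, 5 and 148 one-class genes in Basal, Luminal Progenitor 1, Luminal Progenitor 2 and Mature Luminal. Agreeing genes numbered 43 lower at the smaller fold tried, 3 higher and 10 lower at 2-fold, and 6 and 14 with 99.9% intervals. Without Basal they were 22 and 45, and without Mature Luminal 16 and 48, since fewer classes had to pass. One-class genes of Luminal Progenitor 2 were 8 with TMM factors, 8 with the mean of cell CPM, 2 without cells under 500 genes or over 10% mitochondrial UMIs, and 12 with both folds of that rule lowered. With cells of 2 or more non-epithelial markers left out, Luminal Progenitor 1 and 2 had 0 and 1. A minimum of 10 UMIs gave them 8 and 9, and 50 UMIs gave 17, 2, 1 and 72 in the 4 classes. Thinning gave 22, 23, 22 and 74; 99.9% intervals gave 6 in Basal, 1 in Luminal Progenitor 2 and 54 in Mature Luminal. Without the 5 cells with most UMIs, Luminal Progenitor 1 and 2 had 1 and 2, and agreeing genes 14 and 17. Without Basal the last 3 classes had 13, 18 and 260, without Luminal Progenitor 2 Luminal Progenitor 1 had 10, and without Mature Luminal the first 3 had 90, 9 and 12; the joined progenitor class had 7. List medians were taken over the genes that still met the minimum UMIs under each alternative, so their genes can differ from the main ones. The milk median in Mature Luminal, -1.34 over 5 genes in the main setting, was 1.28 without cells of 2 or more non-epithelial markers. It was 0.36 at 50 UMIs and 1.18 without the 5 cells, and Csn1s1 fell below the minimum in both. The S phase median was 0.30 in Basal without marker cells and 0 in Luminal Progenitor 1 after thinning, where the G2/M median was 0.014. The mature luminal median in Luminal Progenitor 2 was -0.031 at 10 UMIs. Apart from the stated construction, the cause was not tested. No paired analysis was possible because each genotype had 1 library. Differences between mice, preparations and genotypes cannot be told apart, and counting intervals were widest in Basal and Mature Luminal, the classes with the fewest UMIs.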
